A study of Drosophila melanogaster with 12 samples.

Results

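The phototransduction cascade genes are the genes through which the photoreceptor cells of the fly eye turn absorbed light into an electrical response. Members were chosen by name: a probe set belonged to the group when the platform annotation gave it a single gene symbol and that symbol was trp, trpl, norpA, inaC, inaD, ninaC, Arr1, Arr2 or rdgC. Of these 9 genes, 7 were matched, among 11982 genes measured in all, by 8 of the 18769 probe sets tested, and norpA and ninaC were not analysed here. One probe set read each of trp, trpl, inaC, inaD, Arr1 and Arr2, and 2 probe sets read rdgC. The trp gene lies on chromosome arm 3R, Arr2 and rdgC on 3L, Arr1 on 2L, and trpl, inaC and inaD on 2R.

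Whole Drosophila melanogaster of the outbred LHm population, kept at 25 °C, were measured as larvae of the last instar, pupae and adults, females and males separately. Each of the 6 groups had 2 biological replicates of 10 pooled animals, 1 Affymetrix Drosophila Genome 2.0 array each, 12 arrays in all. No mutant, transgene or treatment was involved, and the labels give no age within the pupal or the adult stage. The authors deposited log2 expression values made with RMA, a procedure of background correction and normalization that joins the short probes of a set into 1 value.

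In fly photoreceptors, light-activated rhodopsin switches on a G protein, which activates the phospholipase C encoded by norpA, and the TRP and TRPL cation channels then open. The scaffold protein INAD holds TRP, the phospholipase and an eye-specific protein kinase C together in a signalling complex. Arrestins bind activated rhodopsin and end its signalling, and the phosphatase encoded by rdgC removes phosphate from rhodopsin. The compound eye is built during the larval and pupal stages from the eye disc, while the larva sees with a small separate organ, Bolwig's organ. Some of these genes are also used outside the eye, for instance in other sensory cells.

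Arrays of the same group correlated with r between 0.992 and 0.997 over all probe sets. The sperm chromatin gene Mst77F, named here only as a check of the sex labels, lay between 4.82 and 5.61 on all female arrays and between 12.18 and 14.00 on all male arrays. The median value of an array was lower on all female arrays (6.27 to 6.44) than on all male arrays (6.73 to 6.81). Taken probe set by probe set, the sex difference (female minus male, log2) nevertheless had a median of 0.23 in larvae, of 0.37 in pupae and of 0.21 in adults. Bacterial and phage control transcripts were also higher on female arrays in larvae (median 0.433 over 18 probe sets) and pupae (0.730), and differed by 0.011 in adults. Recentring, which subtracts from an array the median deviation of its values from the probe set means, brought the 3 medians to 0.04, 0.10 and -0.04, and centring on array medians to 0.60, 0.74 and 0.68. The members' sex differences have to be read against these shifts. Within 1 sex the median of a stage step lay between -0.07 and 0.03. Differences were tested with limma over all 18769 probe sets, and a call needs an adjusted p (Benjamini-Hochberg, per comparison) below 0.05. Every adjusted p below is from this limma fit, values after ± are standard errors (SE) of log2 differences, and where 2 probe sets read rdgC, the brighter one stands for the gene.

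The members' levels are described first, gene by gene. Levels of different genes come from different probes and are not compared with each other. Over all arrays 25% of the values lay below 4.83, so levels near 5 are close to the dim end of the arrays, where differences are compressed.

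The channel gene trp (probe set 1622920_at) encodes the main light-activated calcium channel. Its log2 level was 5.17 and 5.36 in female larvae and 4.59 and 4.73 in male larvae. In pupae it was 8.52 and 8.06 in females and 5.96 and 6.24 in males. In adults it was 8.21 and 8.54 in females and 9.73 and 9.94 in males. Female pupae were thus already in the range of female adults, the only neighbouring groups in the order of trp levels whose arrays overlapped, while male pupae lay between the larvae and these groups.

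The second channel gene, trpl (1633649_s_at), whose protein forms a less calcium-selective channel, followed another course. Its level was 5.80 and 6.02 in female larvae and 5.43 and 5.52 in male larvae. In pupae the levels were 5.32 and 5.15 in females and 4.55 and 4.99 in males, the lowest of the 3 stages in both sexes. Adults had 8.37 and 8.54 in females and 9.97 and 10.18 in males. No neighbouring groups overlapped in the order of trpl levels, and the adults stood apart from all earlier groups. The suffix _s_at of this set marks probes shared by several transcripts.

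The scaffold gene inaD (1638319_at) stood at 5.24 and 5.21 in female larvae and 4.74 and 4.64 in male larvae. In pupae it was at 8.07 and 7.90 in females and 6.94 and 7.32 in males, and in adults at 7.98 and 7.96 in females and 9.74 and 9.63 in males. The kinase gene inaC (1637807_at), which encodes the eye protein kinase C, stood at 5.07 and 5.03 in female larvae and 4.50 and 4.24 in male larvae. Both genes had arrays of female pupae and female adults in overlapping ranges. For inaC the pupal levels were 8.62 and 8.07 in females and 7.58 and 7.49 in males, and the adult levels 7.93 and 8.15 in females and 9.60 and 9.53 in males. Male adults were highest for both, and male larvae lowest.

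The 2 arrestin genes differed in their course. Arr2 (1632111_at), the major arrestin of the photoreceptor, was at 5.78 and 5.72 in female larvae and 5.74 and 5.37 in male larvae, where the sexes overlapped. In pupae it was at 9.10 and 8.67 in females and 8.12 and 8.38 in males, and in adults at 12.49 and 12.80 in females and 14.08 and 14.17 in males. It climbed at each stage in both sexes.

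Arr1 (1636163_at), the minor arrestin, which acts in the removal of rhodopsin from the light-sensing membrane, was at 6.65 and 6.45 in female larvae and 6.65 and 6.85 in male larvae. In pupae it was at 5.06 and 5.29 in females and 6.90 and 7.15 in males. Adults had 11.01 and 11.22 in females and 12.67 and 12.65 in males. Female pupae were the lowest group for Arr1, below all larvae, whereas for trp, inaC, inaD and Arr2 they were above all larvae and above the male pupae.

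The phosphatase gene rdgC was read by 2 probe sets that did not run together (r = 0.14 over the 12 arrays). The brighter set (1637386_at) was at 6.67 and 6.46 in female larvae and 6.36 and 6.25 in male larvae, at 7.63 and 7.36 in female pupae and 7.30 and 7.48 in male pupae, and at 6.54 and 6.48 in female adults and 7.86 and 8.03 in male adults. Female adults overlapped female larvae, and the 2 sexes overlapped in pupae. The dimmer set (1634061_a_at, whose suffix marks alternative transcripts of 1 gene) stayed between 4.72 and 5.84 on all arrays.

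**Figure D1:**
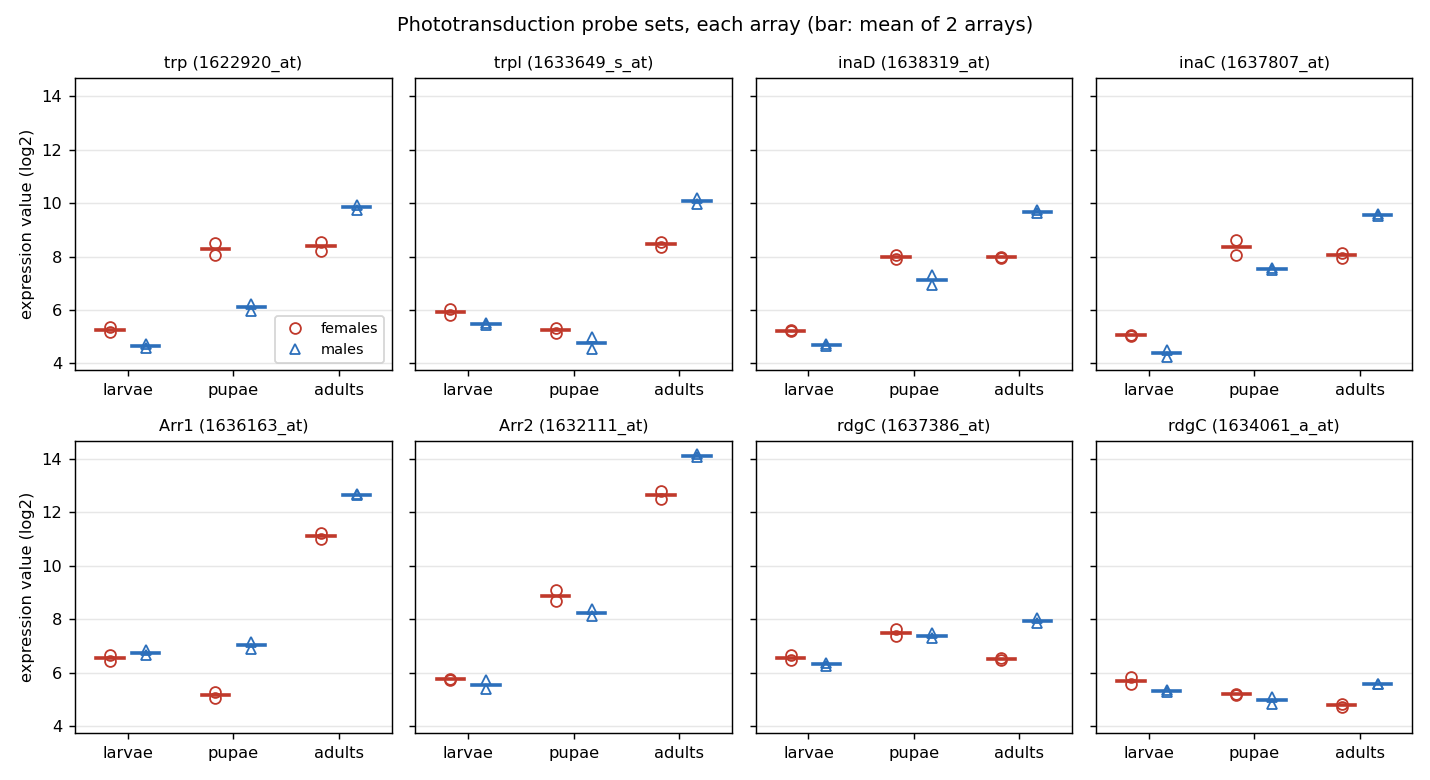
Log2 expression of the 8 phototransduction probe sets (vertical axis, 1 panel each) in larvae, pupae and adults (horizontal axis), females as circles and males as triangles, with a bar at the mean of the 2 arrays of a group. Arr1 and trpl reach their high levels only in adults, while trp, inaD and inaC in females lie at about 8 in both pupae and adults.

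Over the 12 arrays inaD and inaC had the most similar courses (r = 0.99), followed by inaD and trp (0.97), and trpl ran with Arr1 (0.95). Between these sets r was lower, from 0.56 for inaC with Arr1 to 0.74 for trp with trpl. Arr2 ran with both sets (0.93 with trp and with inaD, 0.89 with inaC, 0.86 with trpl and with Arr1). These correlations describe 6 groups of 2 arrays, which share stage and sex.

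The first stage step asked which cascade genes rise when the larva becomes a pupa. In females 5 of 7 genes rose and 2 fell, and in males 5 rose, 1 fell and 1 did not pass the test. Over all probe sets, 25.7% were called higher and 19.6% lower in the female step, and 27.2% and 21.2% in the male step. The median of the 7 genes was 2.76 in females and 1.44 in males, beside 0.03 in females and 0.00 in males over all probe sets. In whole animals, a change in photoreceptor cells relative to the rest of the body and a change in RNA per cell cannot be told apart.

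The 3 complex genes analysed (trp, inaD and inaC) and Arr2 rose in both sexes. The male larval levels of all 3 complex genes lay below 4.83, at the dim end of the arrays, so no fold is given for their male steps. Their female larval means (5.26, 5.22 and 5.05) were also close to the dim end, which limits the female folds. The inaC difference was 3.30 ± 0.17 in females (9.82-fold, adjusted p = 5.16e-08) and 3.17 ± 0.17 in males (adjusted p = 7.64e-08). Arr2 rose by 3.13 ± 0.18 in females and 2.69 ± 0.18 in males, and inaD by 2.76 ± 0.13 in females and 2.44 ± 0.13 in males. For trp the female step was 3.03 ± 0.18 (8.16-fold) and the male step 1.44 ± 0.18 (adjusted p = 4.72e-05). The brighter rdgC set rose by 0.93 ± 0.13 in females and 1.09 ± 0.13 in males, whereas the dimmer one fell by 0.52 in females and by 0.35 in males. The male value of the dimmer set was no longer called after recentring (-0.32, adjusted p = 0.0579) or quantile normalization (-0.26, adjusted p = 0.113). It was also not called with only the groups compared (adjusted p = 0.0549) or in eBayes with trend and robust (adjusted p = 0.0682). Without male larvae replicate 1, male larvae replicate 2 or male pupae replicate 1 it was -0.33, -0.38 and -0.21.

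The other channel and the other arrestin did not follow. The trpl level fell by 0.67 ± 0.15 in females (adjusted p = 0.0046) and by 0.71 ± 0.15 in males (adjusted p = 0.00291). Arr1 fell by 1.38 ± 0.14 in females (adjusted p = 9.33e-06). In males its difference of 0.27 ± 0.14 did not pass the test (adjusted p = 0.132).

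The second stage step, from pupa to adult, gave different counts in the 2 sexes. In males all 7 genes rose (beside 18.8% of all probe sets called higher and 32.2% lower). In females 3 rose, 1 fell and 3 did not pass the test (beside 27.2% of all probe sets called higher and the same share lower). The median of the genes was 0.08 in females and 3.74 in males, beside -0.04 and -0.07 over all probe sets.

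Arr1 and trpl, which were not called higher in the first step in either sex, rose in both sexes here. Arr1 rose by 5.94 ± 0.14 in females (61.4-fold, adjusted p = 9.44e-11) and by 5.64 ± 0.14 in males (49.8-fold, adjusted p = 1.12e-10). For trpl the steps were 3.22 ± 0.15 in females (9.29-fold) and 5.30 ± 0.15 in males, where the pupal mean of 4.77 was at the dim end. The female pupal means of Arr1 (5.18) and trpl (5.24) were also close to the dim end, which limits their female folds. Arr2 rose a second time, by 3.76 ± 0.18 in females (13.6-fold) and 5.88 ± 0.18 in males (58.9-fold).

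The complex genes trp, inaD and inaC rose a second time in males but were not called in females. In males trp rose by 3.74 ± 0.18 (13.4-fold), inaD by 2.56 ± 0.13 (5.89-fold) and inaC by 2.03 ± 0.17 (4.08-fold). In females the differences were 0.08 ± 0.18 for trp (adjusted p = 0.725), -0.01 ± 0.13 for inaD (adjusted p = 0.955) and -0.31 ± 0.17 for inaC (adjusted p = 0.154). The inaC value was called lower after quantile normalization (-0.42, adjusted p = 0.0473) and without female pupae replicate 2 (-0.58, adjusted p = 0.00761). The brighter rdgC set fell by 0.99 ± 0.13 in females (adjusted p = 5.31e-05) and rose by 0.56 ± 0.13 in males (adjusted p = 0.00361).

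**Figure D2:**
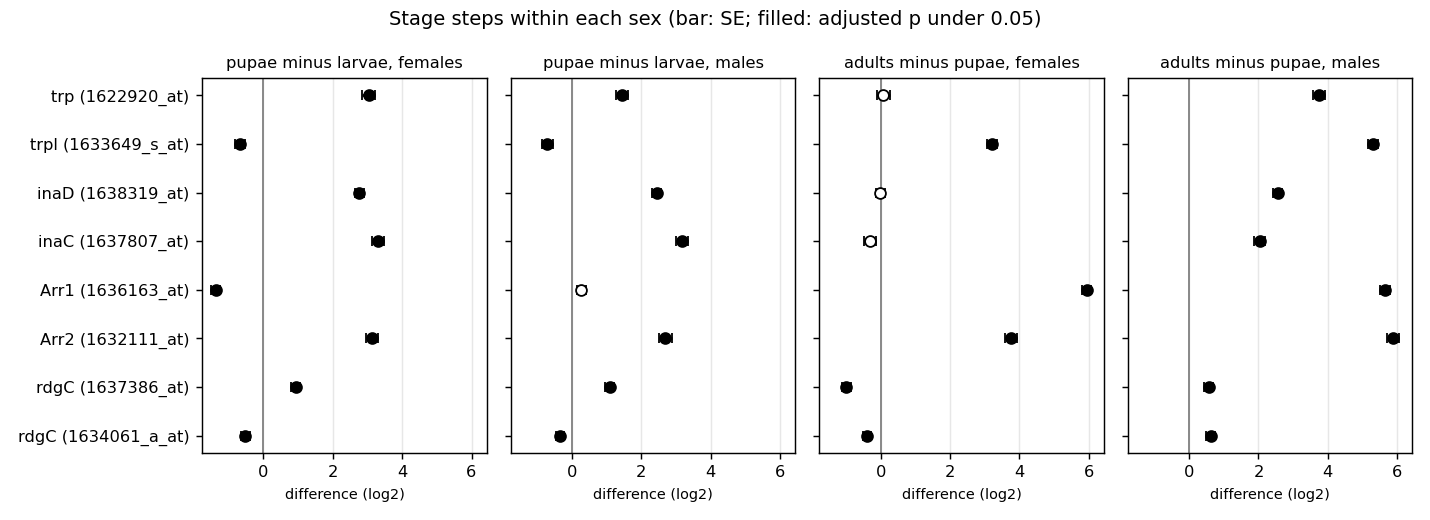
Log2 difference of each phototransduction probe set (rows) for the 2 stage steps of each sex (panels), with bars of 1 SE and filled points where the limma adjusted p is under 0.05. In the female step from pupae to adults trp, inaD and inaC lie near 0 (0.08, -0.01 and -0.31), while Arr1 lies at 5.94.

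The sexes were then compared within each stage. In larvae 4 of 7 genes were called higher in females and 0 lower, beside 27.1% and 11.9% of all probe sets. These were inaC (0.68 ± 0.17, adjusted p = 0.0109), trp (0.60 ± 0.18, adjusted p = 0.023), inaD (0.54 ± 0.13, adjusted p = 0.00946) and trpl (0.43 ± 0.15, adjusted p = 0.0481). Their levels lay between 4.24 and 6.02, close to the dim end of the arrays. The median over the 7 genes was 0.43, beside 0.23 over all probe sets and 0.433 for the control transcripts. After recentring limma called 0 of the 7 genes in larvae (for inaC 0.50, adjusted p = 0.0529), and at an unadjusted p under 0.05 there were 3 higher and 1 lower. Without male larvae replicate 2 limma also called 0, with 4 higher at an unadjusted p under 0.05. After centring on array medians 6 genes were called higher, but 16661 of all 18769 probe sets were then called (median 0.60), so this count follows the shift of that scaling. Further, 2 were called without female larvae replicate 2 or without male larvae replicate 1.

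In pupae the members went both ways. By far the largest female-higher difference was that of trp, at 2.19 ± 0.18 (4.58-fold, adjusted p = 2.16e-06), and the only gene called lower in females was Arr1, at -1.85 ± 0.14 (3.60-fold, adjusted p = 9.57e-07). After recentring the trp and Arr1 differences were 1.93 (adjusted p = 3.77e-06) and -2.12 (adjusted p = 3.04e-07).

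Smaller differences in female pupae were 0.86 ± 0.13 for inaD (adjusted p = 0.000296), 0.81 ± 0.17 for inaC (adjusted p = 0.00224), 0.63 ± 0.18 for Arr2 (adjusted p = 0.0102) and 0.47 ± 0.15 for trpl (adjusted p = 0.0221). In all, 5 of 7 genes were called higher and 1 lower, beside 51.9% and 14.3% of all probe sets, and rdgC was not called (0.11 ± 0.13, adjusted p = 0.45). The control transcripts differed by 0.730 in pupae, about as much as inaD, inaC and Arr2, and the part of this shift in these differences was not tested. After recentring 3 genes were higher, trp, inaD (0.59, adjusted p = 0.00392) and inaC (0.54, adjusted p = 0.0257). Arr2 (0.36, adjusted p = 0.121) and trpl (0.20, adjusted p = 0.327) were no longer called after recentring. The trpl call was also lost after quantile normalization (0.34, adjusted p = 0.071) and with only the groups compared (adjusted p = 0.0633). Arr2 and trpl were also not called without female pupae replicate 1 or without male pupae replicate 1 (adjusted p between 0.0779 and 0.195).

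In adults all 7 genes were lower in females, by similar amounts, beside 26.6% of all probe sets called lower and 39% called higher. Their differences were -1.71 ± 0.13 for inaD (3.28-fold, adjusted p = 4.04e-07), -1.62 ± 0.15 for trpl, -1.55 ± 0.14 for Arr1, -1.53 ± 0.17 for inaC, -1.48 ± 0.18 for Arr2, -1.46 ± 0.18 for trp and -1.43 ± 0.13 for rdgC (2.70-fold, adjusted p = 1.72e-06). The standard deviation of the difference over the 7 genes was 0.10 in adults, against 1.21 in pupae and 0.30 in larvae. The dimmer rdgC set was also lower, by a smaller amount (-0.79 ± 0.12, adjusted p = 0.000171).

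**Figure D3:**
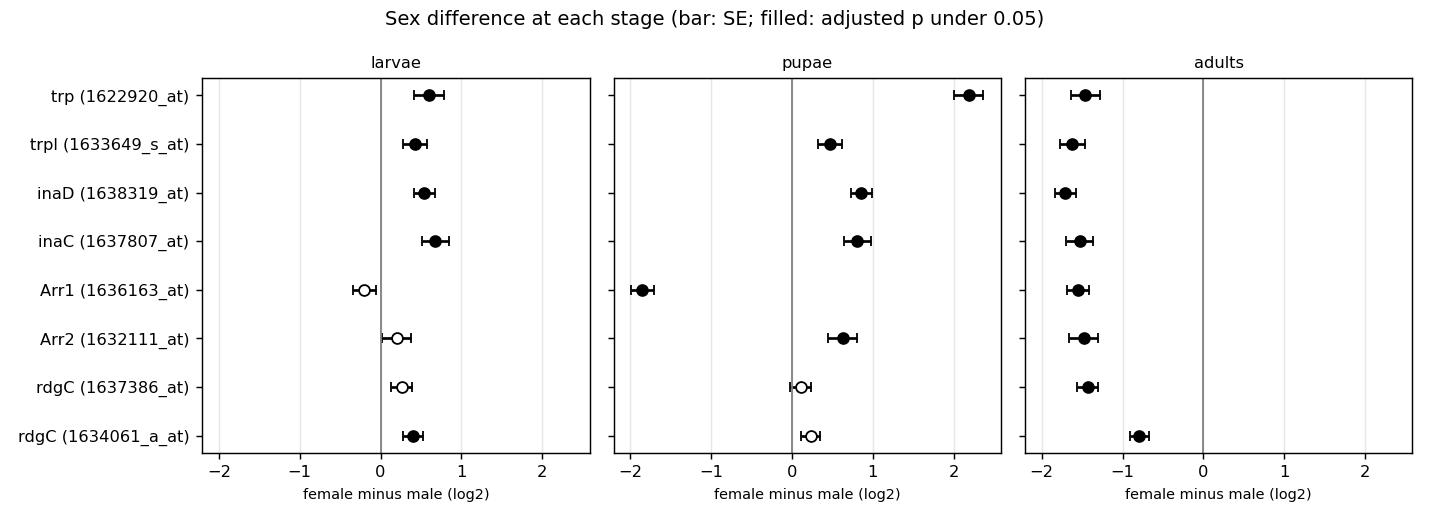
Female minus male log2 difference of each phototransduction probe set (rows) in larvae, pupae and adults (panels), with bars of 1 SE and filled points where the limma adjusted p is under 0.05. The points spread from -1.85 (Arr1) to 2.19 (trp) in pupae, and in adults all lie below 0, between -1.71 and -0.79.

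The change of the sex difference from stage to stage was tested as an interaction. From larvae to pupae it passed the test for 2 of 7 genes, trp (1.59 ± 0.25, adjusted p = 0.00138) and Arr1 (-1.64 ± 0.19, adjusted p = 0.000224), beside 7.74% of all probe sets called higher and 9.78% lower. For inaD, which did not pass, the change was 0.32 ± 0.18 (adjusted p = 0.272), and after quantile normalization it was 0.72 (adjusted p = 0.0237). From pupae to adults the sex difference changed for 6 of 7 genes, all in the male-higher direction, beside 25.5% of all probe sets called lower and 26.1% higher. The changes were -3.66 ± 0.25 for trp (adjusted p = 6.17e-07), -2.57 ± 0.18 for inaD, -2.34 ± 0.24 for inaC, -2.11 ± 0.25 for Arr2, -2.09 ± 0.22 for trpl and -1.55 ± 0.18 for rdgC. Arr1 was lower in females in both pupae and adults, and its change of 0.30 ± 0.19 did not pass the test (adjusted p = 0.226).

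The rest of the pathway was followed in a list of 22 further genes for G protein subunits, lipid enzymes, ion transport and regulators, of which 19 were matched to a probe set. In adults 11 of the 19 were lower in females and 5 higher (median -0.51, beside 0.21 over all probe sets). Of all probe sets 26.6% were called lower and 39% higher in female adults. Gbeta76C, the eye-enriched G protein beta subunit, was lower in females, with a difference of -1.61 ± 0.16 (adjusted p = 4.62e-06), with 9.55 and 9.59 in females and 11.20 and 11.17 in males. The gene rtp, which encodes retinophilin, a partner of the INAD complex, differed by -1.61 ± 0.11 (8.12 and 8.21 in females, 9.70 and 9.84 in males). The phospholipase D gene Pld was higher in females by 1.74 ± 0.11 and the receptor kinase gene Gprk1 by 1.62 ± 0.11. After centring on array medians the split was 7 lower and 7 higher (median -0.03, beside 0.68 over all probe sets). Under that centring 16462 of all 18769 probe sets were called in adults, which is the background for each list below.

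Among these 19 genes the pupal sex difference was called higher in females for 12 and lower for 2. The shares over all probe sets were 51.9% higher and 14.3% lower. The median of the 19 genes was 0.42, beside 0.37 over all probe sets. After recentring 3 were called higher and 2 lower (median 0.15). The extremes were laza, a lipid phosphatase gene (1.08 ± 0.12), rdgA, which encodes the eye diacylglycerol kinase (0.72 ± 0.12), ktub, a tubby-like gene (-0.98 ± 0.15), and Camta, a calmodulin-binding transcription factor gene (-0.89 ± 0.22). Camta was not called after quantile normalization (-0.57, adjusted p = 0.0656) or without male pupae replicate 1 (-0.74). The step from larvae to pupae was called up in 9 and down in 3 in females, and up in 7 and down in 3 in males, beside 25.7% up and 19.6% down of all probe sets in females and 27.2% up and 21.2% down in males. From pupae to adults 7 rose and 7 fell in females, beside 27.2% of all probe sets in each direction, and 9 rose and 2 fell in males, beside 18.8% up and 32.2% down.

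In that last step Gbeta76C rose by 1.83 ± 0.16 in females and 4.04 ± 0.16 in males. The sodium/calcium exchanger gene Calx rose by 3.55 ± 0.17 in males (11.7-fold). In females rdgB, a phospholipid transfer protein gene, fell by 1.73 ± 0.16 and inaE, a diacylglycerol lipase gene, by 1.23 ± 0.21. In males Galphaq, the G protein alpha subunit that rhodopsin activates, fell by 1.11 ± 0.16 and Gprk1 by 1.04 ± 0.11. The female means went the same way for Calx (6.83 in pupae, 8.25 in adults) and Galphaq (9.88 and 8.90), but not for Gprk1 (10.16 and 10.36). The male means were 9.82 and 9.45 for rdgB, and 6.73 and 7.38 for inaE. The change of the sex difference from pupae to adults was called lower for 11 of the 19 genes and higher for 3. Of all probe sets 25.5% were called lower and 26.1% higher. The median change of the 19 genes was -0.95, beside -0.10 over all probe sets.

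Of the 7 rhodopsin genes only Rh7 was matched to a probe set with a single gene symbol, and the others were not analysed here. Its level stayed between 6.26 and 7.19 on all 12 arrays, and in both pupae (0.38 ± 0.14, adjusted p = 0.0369) and adults (0.42 ± 0.14, adjusted p = 0.0243) it was higher in females. After recentring Rh7 was called in neither stage (0.11 in pupae and 0.17 in adults). It was also not called in pupae without female replicate 1, female replicate 2 or male replicate 1, nor in adults without replicate 1 of either sex (adjusted p between 0.0631 and 0.234). Of 6 measured genes of retinoid handling and rhodopsin maturation, 4 were called higher in pupae of females and 1 lower. In adults 4 were called lower in females and 0 higher (also 0 at an unadjusted p under 0.05). Of all probe sets 51.9% were called higher and 14.3% lower in pupae, and 39% higher and 26.6% lower in adults. After recentring the pupal counts of the 6 genes were 2 higher and 1 lower. After centring on array medians their adult counts were 1 higher and 3 lower. Pdh, a retinal pigment cell dehydrogenase gene, was higher in female pupae by 5.18 ± 0.13 (36.3-fold), and its adult difference was -2.18 ± 0.13. Like trp it was high in female pupae and female adults (means of 10.58 and 10.81), and it rose in males mainly between pupae (5.39) and adults (12.99).

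Markers of photoreceptors and of other cells were set beside the members. Of 11 measured photoreceptor structure and identity genes, 9 were higher and 1 lower in female pupae (median 0.81), beside 51.9% and 14.3% of all probe sets. After recentring 7 were higher and 1 lower in female pupae. In female adults 2 were higher and 7 lower (median -0.63), beside 39% and 26.6% of all probe sets. The adult split was 4 higher and 4 lower after centring on array medians (median -0.16) and 2 higher and 5 lower after quantile normalization (median -0.25). The mean log2 level of these genes per array was 7.74 to 7.83 in female pupae against 7.09 to 7.10 in male pupae, and 6.42 to 6.47 in female adults against 6.82 to 6.90 in male adults. The gene chp, which encodes the photoreceptor surface protein chaoptin, differed by 1.15 ± 0.16 in pupae and -1.89 ± 0.16 in adults. The gene crb of the same list went the other way, at -0.42 ± 0.09 in pupae and 1.66 ± 0.09 in adults. Its pupal difference was not called after centring on array medians (-0.05, adjusted p = 0.615). In adults prom was also higher in females (0.37 ± 0.15), but it was not called after recentring (0.12, adjusted p = 0.543). The part of photoreceptor number or structure in the members' differences was not tested. In the female step from pupae to adults 10 of the 11 photoreceptor structure and identity genes fell and 0 rose (median -1.41). Of the 7 members 3 rose and 1 fell. Most neuronal, glial and muscle markers fell as well, 9 of 11, 6 of 7 and 6 of 6 (medians -1.35, -1.80 and -1.15). In these 3 lists 1, 1 and 0 genes rose, and 27.2% of all probe sets were called in each direction. The fall was thus not limited to the photoreceptor list. In the male step 3 of the 11 photoreceptor genes rose and 5 fell (median -0.40), while all 7 members rose (median 3.74). Of the neuronal, glial and muscle markers 3, 3 and 4 rose and 4, 4 and 0 fell in males (medians -0.01, -0.61 and 1.24). Over all probe sets 18.8% were called higher and 32.2% lower in that step.

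Among 13 measured genes listed for eye pigment and lens cells, 8 were higher and 1 lower in female pupae (median 0.40). Whether these genes are limited to those cells was not tested, so the counts describe the list and not a cell type. One of them, cn, lay between 2.80 and 3.28 on all arrays, where 10% of all values lay below 3.98. Another, VhaAC39-1, stayed between 11.30 and 12.37. The share higher lies near the 51.9% of all probe sets (14.3% lower, median 0.37). After recentring 2 of these genes were higher and 1 lower in female pupae. In female adults 4 were higher and 5 lower, beside 39% and 26.6% of all probe sets. The adult median was 0.20, and -0.05 after recentring. After centring on array medians 8 were higher and 2 lower in female adults (median 0.67, beside 0.68 over all probe sets). The lens protein gene Cpr72Ec was higher in female pupae by 5.23 ± 0.16 (37.6-fold), with means of 10.87 in females and 5.64 in males. In adults it differed by -0.75 on the log2 scale, and by -0.28 after centring on array medians, which was not called. Other genes of the list went other ways. In pupae Pu was lower in females (-0.93 ± 0.18) and ry higher (1.11 ± 0.14). In adults ed (2.05 ± 0.17) and g (1.53 ± 0.11) were higher in females, and Pu (-1.68 ± 0.18) and se (-0.90 ± 0.12) lower.

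Markers of neurons, glia and muscle in general were compared in the same way. In adults 7 of 11 neuronal genes, 7 of 7 glial genes and 6 of 6 muscle genes were lower in females and 0 of each were higher (limma, also 0 at an unadjusted p under 0.05), with medians of -0.95, -1.23 and -1.66, beside 26.6% of all probe sets called lower. Among the neuronal genes 2 were called higher and 7 lower after quantile normalization, and 2 higher and 6 lower after centring on array medians. The muscle values ranged from -1.80 to -1.39, which spans the values of the 7 phototransduction genes. The mean log2 level per array was 6.99 to 7.11 in female against 7.97 to 8.16 in male adults for the neuronal list, 7.81 to 7.95 against 9.15 to 9.18 for the glial list and 10.72 to 10.84 against 12.39 to 12.45 for the muscle list. On a log2 scale with a background no marker can be read as absent. The part of these other tissues in the members' adult difference was not tested. In pupae 9 of 11 neuronal, 4 of 7 glial and 4 of 6 muscle genes were higher in females (medians 0.53, 0.48 and 0.79) and 0 were lower, also 0 at an unadjusted p under 0.05. The glial and muscle shares lie near the background of 51.9% for female-higher calls in pupae. After recentring 3 neuronal, 3 glial and 3 muscle genes were called higher in female pupae. From pupae to adults the sex difference changed in the male-higher direction for 10 of 11 neuronal, 7 of 7 glial and 6 of 6 muscle genes. This compares with 25.5% of all probe sets. The median changes were -1.21, -1.68 and -2.45, beside -2.11 for the median of the 7 phototransduction genes.

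**Figure D4:**
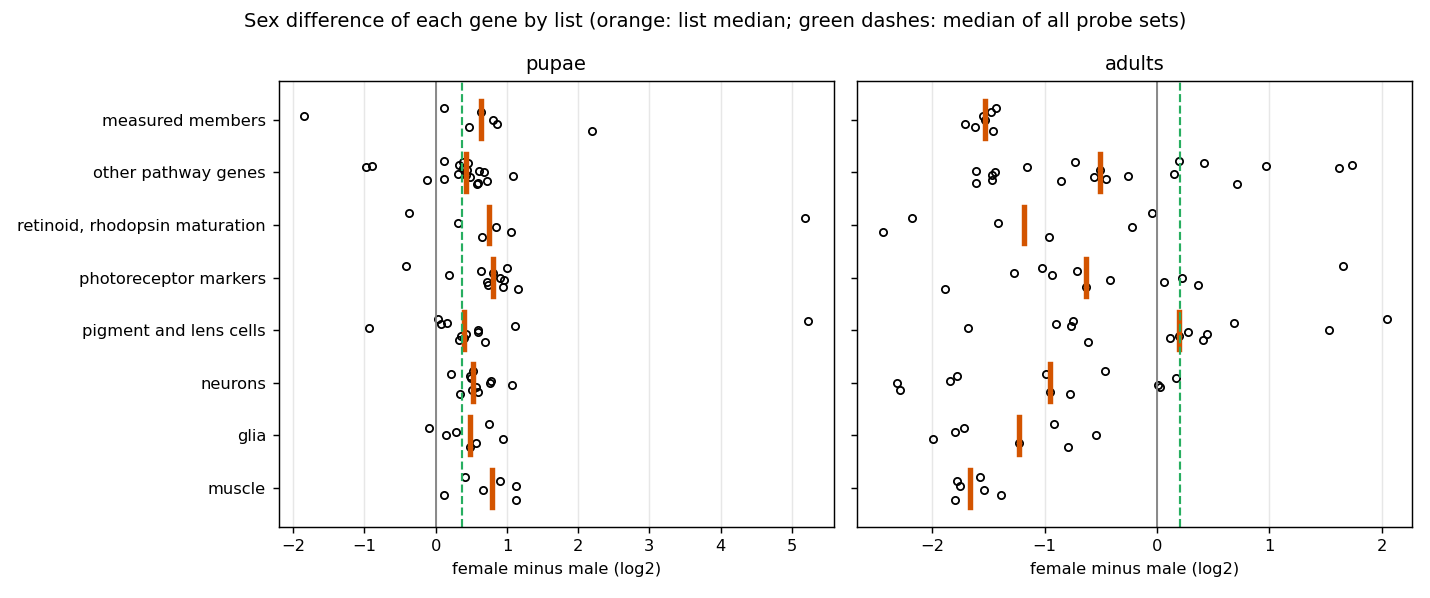
Female minus male log2 difference of each measured gene (points) by list (rows) in pupae and adults (panels), with the list median in orange and the median of all probe sets as a green dashed line at 0.37 in pupae and 0.21 in adults. In adults the 7 members lie between -1.71 and -1.43, within the range of the muscle list (-1.80 to -1.39), and in pupae Pdh (5.18) and Cpr72Ec (5.23) lie far to the right.

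The genes with the most similar course over the 12 arrays were ranked among 9916 genes with a highest group mean of at least 7. For inaC the first was cry, the blue-light receptor of the circadian clock (r = 0.995), and for inaD it was Nepl11 (0.996). Nplp3 came first for Arr2 (0.998), CG8520 for Arr1 (0.991), CG31189 for trpl (0.996), CG12091 for trp (0.988) and Liprin-gamma for the brighter rdgC set (0.972). The genes of the mitochondrial ATP synthase ATPsyngamma (second for inaD, 0.995) and ATPsynC (after cry and glob1 for inaC, 0.988) were also among the first 3. For the mean course of the 7 members the first 5 were spidey (0.996), Mpcp1 (0.995), ACC (0.994), Ser7 (0.994) and Gbeta76C (0.992), the last of which belongs to the cascade. With 6 groups of 2 arrays, high correlations are shared by many genes.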

How the data were processed

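Messenger RNA was measured on 12 arrays (6 groups of 2). The deposited log2 values, 1 for each probe set on each array, were made by the authors with RMA per the submitters' processing notes (version not given in the sources used here). There were 18952 probe sets, with values between 2.47 and 15.61 and none missing, and 183 control probe sets were left out of the tests. Of the remaining 18769, 13647 carried 1 gene in the platform annotation, 402 several and 4720 were unnamed here. RefSeq names of assembly Release 6 held 13544 of the 1-gene probe sets.

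Group means were fitted over all arrays in limma (3.58.1, R 4.3.3; 6 residual and 4.1 prior degrees of freedom). Per gene, the probe set with the highest mean was used. Gene lists (8 lists, 94 entries, 74 matched to a probe set) came from general knowledge. Under 80% of entries were matched for rhodopsins (1 of 7), retinoid genes (6 of 9) and muscle (6 of 8). Members and lists were chosen with earlier results of these data known. Named were all members, from each list up to 2 called genes in each direction per comparison, and the genes most similar in course. Promoter motifs, also planned, were not analysed here. Same-numbered replicates did not deviate together: r of deviations lay between -0.08 and 0.08 over 15 pairs of groups. The number of arrays limits the precision.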

Additional observations from a re-analysis of the deposited data

Results flagged for a closer look

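The sex difference changed between stages, by the interaction test of limma, for several cascade genes. From larvae to pupae the change was 1.59 for trp and -1.64 for Arr1, with the sexes closer together in larvae (0.60 and -0.20) than in pupae (2.19 and -1.85). From pupae to adults it was -3.66 for trp, -2.57 for inaD, -2.34 for inaC, -2.11 for Arr2, -2.09 for trpl, -1.55 for the brighter rdgC probe set and -1.02 for the dimmer one.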

How the results depend on the processing

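Alternatives were quantile normalization, 2 centrings, a filter on dim probe sets (mean under 5), only the groups compared, the replicate block, eBayes with trend and robust, leaving out each array in turn, every probe set counted, and a 2-fold minimum. In larvae the count of 4 genes became 0 after recentring and 0 at a 2-fold minimum, and lay between 0 and 3 when an array was left out. In pupae it fell to 2 at a 2-fold minimum (6 without it), and the range without single arrays was 4 to 6. The ranges were 7 to 7 for adults and 4 to 5 for the female step from pupae to adults. For the single probe sets, 807 of 856 alternative values kept their side of the threshold, 39 lost the call, 10 gained it and 0 called values changed sign. With the replicate block the count in pupae was 6 and that in adults 7, and no call of a member changed. The replicate numbers are shared labels only. The 2-fold minimum lowers counts by construction, and the cause of the other changes was not tested. Dim larval levels limit what can be seen there.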
